A study of Mus musculus with 10 samples.

Results

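Natural killer (NK) cells and cytotoxic T cells kill target cells by releasing granules. Perforin opens the target's membrane, and granzymes, which are serine proteases, enter and start cell death. Inside the granule these proteins are bound to serglycin, a proteoglycan encoded by Srgn. NK cells need interleukin-15, read through a receptor chain shared with interleukin-2, and they choose targets by paired activating and inhibitory surface receptors. In obese visceral fat, NK cells and CD8 T cells are part of the resident leukocyte population.

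The genes described here are 10 members of this cytotoxic programme, taken by name from a table of 23930 amplicons: Prf1, Gzma, Gzmb, Nkg7, Ctsw, Il2rb, Klrd1, Klrk1, Ncr1 and Eomes. The rule that picks them uses their names and no measured value. They were measured in white fat of the epididymal depot, a visceral fat pad, in 5 male Srgn-/- mice and 5 male Srgn+/+ mice. All animals were C57BL/6, 18 weeks old, and had spent 8 weeks on a diet high in sucrose and fat, so the Srgn+/+ controls carry the diet too and no lean group enters. Each mouse gave 1 library of total RNA, made with an Ion AmpliSeq kit that amplifies a single short target, the amplicon, for each gene. The part of Srgn removed in Srgn-/- mice is not given in the sources used here.

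Levels are counts per 1000000 reads (CPM), with library sizes scaled by the trimmed mean of M-values (TMM). Groups were compared with the quasi-likelihood test of edgeR, two-sided, with p-values adjusted by the Benjamini-Hochberg method over 12719 genes that passed a filter on low counts. A gene was called at an adjusted p under 0.05. Differences are log2 of Srgn-/- over Srgn+/+ with their standard error (SE). Amplicons differ in efficiency, so levels are compared between groups and not between genes. The granzyme and Klr families hold close copies, and no source used here gives amplicon positions, so values of Gzma, Gzmb, Klrd1, Klrk1 and other genes of these families may include reads of a copy.

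The libraries held 7824764 to 10757779 reads, so 1 CPM stood for 7.54 to 10.5 reads and a count of 3 reads, the floor used here, for 0.287 to 0.398 CPM. Srgn itself had 3, 1, 0, 0 and 12 reads in Srgn-/- libraries 1 to 5, against 776, 1047, 1301, 851 and 1005 reads in Srgn+/+ libraries 1 to 5. In the libraries with a count of 0, the floor stood for 0.357 CPM (Srgn-/- 3) and 0.383 CPM (Srgn-/- 4). Srgn was the only gene called, with an adjusted p of 9.44e-05 in edgeR. Adipocyte genes (Fabp4, Cidec, Lep and others) summed to 28162 to 33978 CPM in Srgn-/- and to 28906 to 36214 CPM in Srgn+/+, so the defining genes of fat were abundant in every library. Genes of the epididymis and testis, the organs next to this depot, stood apart in 3 libraries: they summed to 4535 CPM in Srgn-/- 3, 1089 CPM in Srgn-/- 5 and 910 CPM in Srgn+/+ 4, and to 1.43 to 128 CPM in the other 7.

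For 7 of the 10 genes a RefSeq promoter sequence (assembly GRCm38.p6, 250 bases before to 50 bases after a gene's start) was at hand, while the deposited counts were made on build mm9 per the submitters' processing notes. The promoters of Gzmb, Nkg7 and Ncr1 are shown because they hold matches to the core letters of 2 transcription factor families of cytotoxic lymphocytes. These are the T-box family, to which Eomes belongs (GTGTGA, on the other strand TCACAC), and the RUNX family, to which Runx3 belongs (TGTGGT, on the other strand ACCACA). Each sequence runs 5′ to 3′ along the gene's own strand, with matches in capitals, which in Gzmb include a match to the AP-1 letters TGANTCA. The coordinates are chr14:56262285-56262584 on the minus strand for Gzmb, chr7:43436888-43437187 on the plus strand for Nkg7, and chr7:4337465-4337764 on the plus strand for the first of 2 annotated starts of Ncr1.
Gzmb: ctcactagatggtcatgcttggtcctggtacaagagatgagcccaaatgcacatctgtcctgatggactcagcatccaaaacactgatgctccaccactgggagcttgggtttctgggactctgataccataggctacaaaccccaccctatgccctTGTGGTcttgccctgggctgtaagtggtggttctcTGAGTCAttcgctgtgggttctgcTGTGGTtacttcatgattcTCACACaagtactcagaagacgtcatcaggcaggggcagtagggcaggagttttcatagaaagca
Nkg7: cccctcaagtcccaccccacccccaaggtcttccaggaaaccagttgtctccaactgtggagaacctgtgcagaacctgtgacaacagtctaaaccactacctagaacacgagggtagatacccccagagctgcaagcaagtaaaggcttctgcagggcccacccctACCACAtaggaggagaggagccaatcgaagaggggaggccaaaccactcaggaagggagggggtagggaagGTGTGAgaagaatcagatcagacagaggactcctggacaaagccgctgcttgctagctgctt
Ncr1: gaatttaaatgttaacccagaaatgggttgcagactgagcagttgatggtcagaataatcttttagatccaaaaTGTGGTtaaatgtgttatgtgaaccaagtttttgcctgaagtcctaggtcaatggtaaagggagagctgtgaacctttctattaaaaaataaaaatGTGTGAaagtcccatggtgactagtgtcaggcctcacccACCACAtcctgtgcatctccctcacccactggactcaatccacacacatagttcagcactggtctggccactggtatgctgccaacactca

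The T-box letters were present in these 3 of the 7 promoters, against 14.5% of all 32851 RefSeq promoters of the same length. They began at position -15 from the start in Gzmb, -12 in Nkg7 and -80 in Ncr1. The RUNX letters were present in 6 of the 7, all but Eomes, against 16.8% of all promoters. The AP-1 letters were present in Gzmb and Klrk1, against 7.81% of all promoters. No matches of different families overlapped. A match says only that the letters are there, and no binding was measured in these mice.

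**Figure D1:**
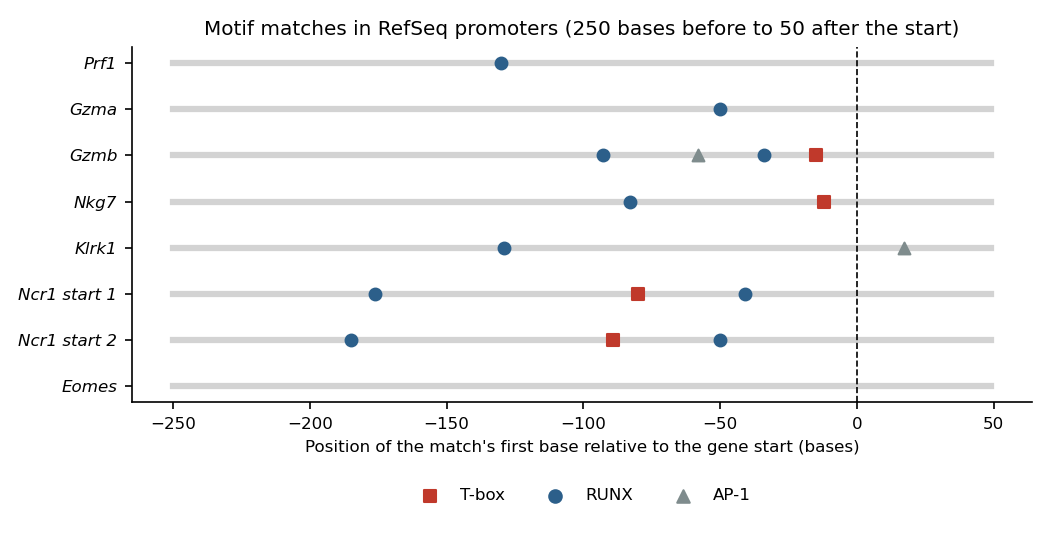
Motif matches in the 7 RefSeq promoters, with Ncr1 drawn at both of its starts. The x axis is the position of a match's first base relative to the gene start in bases, squares are T-box, circles RUNX and triangles AP-1 matches, and only Gzmb, Nkg7 and Ncr1 carry a square.

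All 10 genes had reads in every library, at low levels. Eomes was at or under the floor in 4 libraries, Klrd1 at the floor in Srgn+/+ 1 and 5, and Klrk1 at the floor in Srgn+/+ 5. Summed over the 10, Srgn-/- libraries 1 to 5 had 335, 208, 182, 184 and 187 reads, against 338, 480, 660, 183 and 229 reads in Srgn+/+ libraries 1 to 5. In CPM these sums were 32.8, 22.9, 21.7, 23.5 and 20.4 in Srgn-/-, against 32.5, 45.9, 67.0, 20.9 and 30.4 in Srgn+/+. The Srgn-/- libraries lay close together apart from library 1, while Srgn+/+ libraries 2 and 3 stood far above the rest and Srgn+/+ 4 sat among the Srgn-/- libraries. The mean summed level was 24.3 ± 4.94 CPM in Srgn-/- and 39.3 ± 17.8 CPM in Srgn+/+ (SD, n = 5 each).

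None of the 10 genes was called. Mean levels were lower in Srgn-/- for 9 of them and higher for Klrd1. In edgeR 7 of the 10 passed the count filter, and 0 of those 7 were called, where 0.00786% of all tested genes were called as lower, which is Srgn alone. At an unadjusted p under 0.05, 3 of the 7 (Nkg7, Ctsw and Il2rb) were lower, against 6.06% of all tested genes. DESeq2 called 0 of the 7, where it called 0.849% of all tested genes as lower, and 3 of the 7 were lower at an unadjusted p under 0.05, against 6.79% of all. Limma-voom called 0 of the 7 with 2 lower at an unadjusted p under 0.05, against 5.65% of all. All 7 had a fitted value below 0, against 50.3% of all tested genes, and their median difference was -0.69 on the log2 scale, against 0.00 over all tested genes (-0.00138 unrounded). Klrd1, Klrk1 and Eomes had too few reads for the filter, and the 7 that passed are not the whole set.

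**Figure D2:**
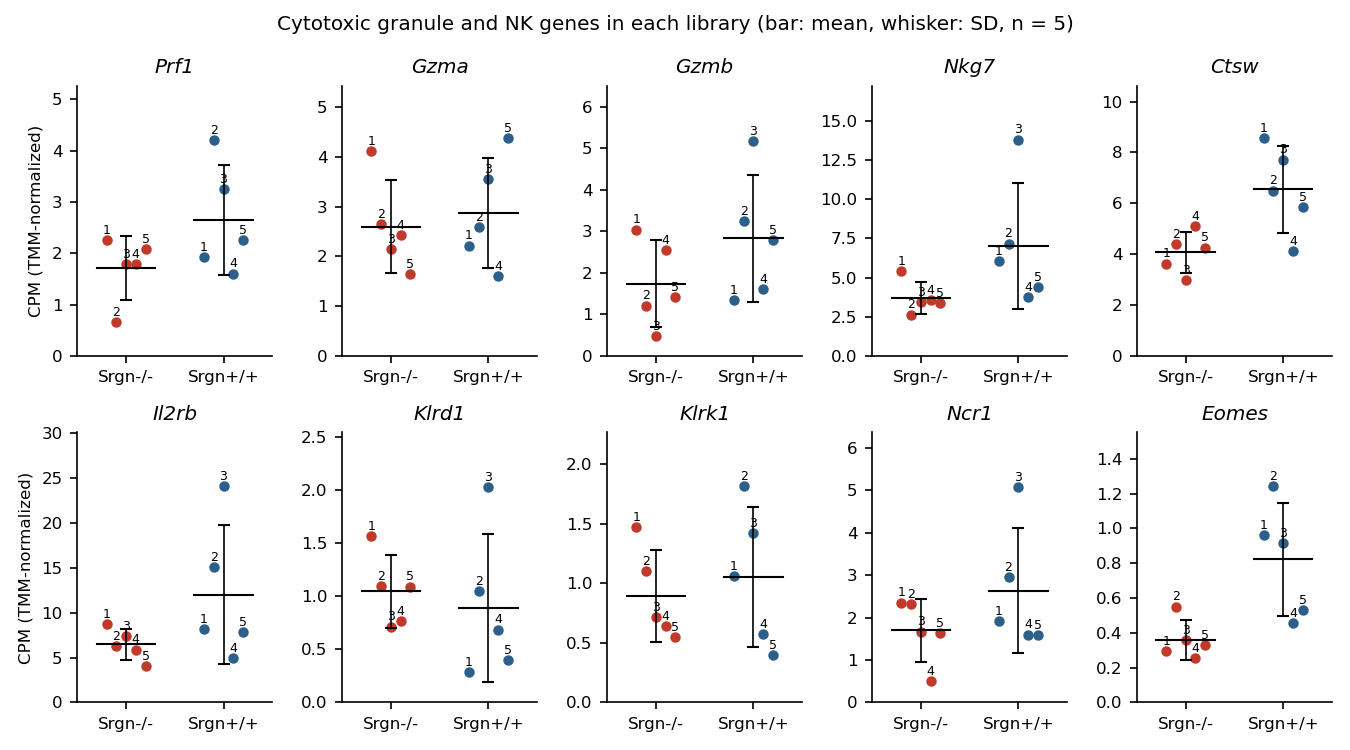
Level of each of the 10 genes in each library in TMM-normalized CPM, Srgn-/- in red and Srgn+/+ in blue, with the library number beside each point, the mean as a bar and the SD as a whisker (n = 5 each). The groups overlap for all 10 genes, and Srgn+/+ library 3 is the highest point for 5 of them.

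Perforin, encoded by Prf1, forms the pore in the target membrane. Prf1 had 23, 6, 15, 14 and 19 reads in Srgn-/- libraries 1 to 5, against 20, 44, 32, 14 and 17 reads in Srgn+/+ libraries 1 to 5. In CPM this was 2.25, 0.660, 1.79, 1.79 and 2.08 in Srgn-/-, against 1.92, 4.20, 3.25, 1.60 and 2.26 in Srgn+/+. Srgn+/+ 2 and 3 were high, Srgn-/- 2 was low, and the other 7 libraries lay close together. Prf1 averaged 1.71 ± 0.621 CPM in Srgn-/- and 2.65 ± 1.07 CPM in Srgn+/+ (SD, n = 5 each), a log2 difference of -0.63 (SE 0.376, 95% interval -1.45 to 0.19; edgeR adjusted p = 0.504).

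Gzmb encodes granzyme B, which cleaves after aspartate and activates caspases in the target cell. Gzmb had 31, 11, 4, 20 and 13 reads in Srgn-/- libraries 1 to 5, against 14, 34, 51, 14 and 21 reads in Srgn+/+ libraries 1 to 5. Its levels were 3.04, 1.21, 0.476, 2.55 and 1.42 CPM in Srgn-/-, against 1.35, 3.25, 5.18, 1.60 and 2.79 CPM in Srgn+/+. Srgn+/+ 3 was highest and Srgn-/- 3 lowest, and the groups overlapped across most of their range. The means of Gzmb were 1.74 ± 1.04 CPM in Srgn-/- and 2.83 ± 1.53 CPM in Srgn+/+, with a log2 difference of -0.70 (SE 0.489, 95% interval -1.76 to 0.37; edgeR adjusted p = 0.568).

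Gzma encodes granzyme A, a protease that cleaves after basic residues. Gzma had 42, 24, 18, 19 and 15 reads in Srgn-/- libraries 1 to 5, against 23, 27, 35, 14 and 33 reads in Srgn+/+ libraries 1 to 5. In CPM it was 4.12, 2.64, 2.14, 2.42 and 1.64 in Srgn-/-, against 2.21, 2.58, 3.55, 1.60 and 4.38 in Srgn+/+. Each group had libraries near the top and near the bottom, with Srgn-/- 1 and Srgn+/+ 5 the highest. Gzma averaged 2.59 ± 0.931 CPM in Srgn-/- and 2.87 ± 1.10 CPM in Srgn+/+, a log2 difference of -0.13 (SE 0.339, 95% interval -0.87 to 0.60; edgeR adjusted p = 0.897). The intervals of Gzmb and Gzma overlap widely, and the difference between these granzymes was not tested.

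Nkg7 encodes a membrane protein of cytotoxic granules. Nkg7 had 55, 24, 29, 28 and 31 reads in Srgn-/- libraries 1 to 5, against 63, 75, 136, 33 and 33 reads in Srgn+/+ libraries 1 to 5. The levels were 5.39, 2.64, 3.45, 3.57 and 3.39 CPM in Srgn-/-, against 6.06, 7.17, 13.8, 3.77 and 4.38 CPM in Srgn+/+. Srgn-/- libraries 2 to 5 lay below every Srgn+/+ library, and Srgn-/- 1 alone made the groups overlap. Nkg7 averaged 3.69 ± 1.02 CPM in Srgn-/- and 7.04 ± 4.02 CPM in Srgn+/+, a log2 difference of -0.93 (SE 0.349, 95% interval -1.69 to -0.18; edgeR adjusted p = 0.312). It did not pass the threshold, and without Srgn+/+ 3 the difference was -0.54 (edgeR adjusted p = 0.454).

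Ctsw encodes cathepsin W, a cysteine protease of NK cells and CD8 T cells. Ctsw had 37, 40, 25, 40 and 39 reads in Srgn-/- libraries 1 to 5, against 89, 68, 76, 36 and 44 reads in Srgn+/+ libraries 1 to 5. In CPM this was 3.63, 4.40, 2.98, 5.10 and 4.26 in Srgn-/-, against 8.57, 6.50, 7.72, 4.12 and 5.84 in Srgn+/+. Srgn+/+ libraries 1, 2, 3 and 5 all lay above every Srgn-/- library, and Srgn+/+ 4 alone fell among them. Ctsw averaged 4.07 ± 0.807 CPM in Srgn-/- and 6.55 ± 1.72 CPM in Srgn+/+, a log2 difference of -0.69 (SE 0.236, 95% interval -1.20 to -0.18; edgeR adjusted p = 0.276). It had the smallest p and the smallest SE of the 7 tested genes, and it too missed the threshold. Its highest reading was in Srgn+/+ 1, and without Srgn+/+ 3 its difference was -0.62 (edgeR adjusted p = 0.342).

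Il2rb encodes the receptor chain that binds interleukin-2 and interleukin-15 and is carried by NK cells and memory CD8 T cells. Il2rb had 89, 57, 62, 46 and 37 reads in Srgn-/- libraries 1 to 5, against 85, 158, 237, 43 and 59 reads in Srgn+/+ libraries 1 to 5. Its levels were 8.73, 6.27, 7.38, 5.87 and 4.04 CPM in Srgn-/-, against 8.18, 15.1, 24.1, 4.92 and 7.83 CPM in Srgn+/+. Srgn+/+ 2 and 3 stood above all others, and the remaining Srgn+/+ libraries lay inside the Srgn-/- range. Il2rb averaged 6.46 ± 1.75 CPM in Srgn-/- and 12.02 ± 7.70 CPM in Srgn+/+, a log2 difference of -0.90 (SE 0.391, 95% interval -1.76 to -0.04; edgeR adjusted p = 0.376). Without Srgn+/+ 3 the difference was -0.48 (edgeR adjusted p = 0.564).

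Ncr1 encodes NKp46, an activating receptor of NK cells and related innate lymphoid cells, and is the gene of the 10 that is most restricted to them. Ncr1 had 24, 21, 14, 4 and 15 reads in Srgn-/- libraries 1 to 5, against 20, 31, 50, 14 and 12 reads in Srgn+/+ libraries 1 to 5. In CPM it was 2.35, 2.31, 1.67, 0.510 and 1.64 in Srgn-/-, against 1.92, 2.96, 5.08, 1.60 and 1.59 in Srgn+/+. Srgn-/- 4 was the lowest library and Srgn+/+ 3 the highest, and the rest were mixed. The means of Ncr1 were 1.70 ± 0.745 CPM in Srgn-/- and 2.63 ± 1.48 CPM in Srgn+/+, with a log2 difference of -0.63 (SE 0.440, 95% interval -1.59 to 0.33; edgeR adjusted p = 0.568). Ncr1 made up 2.17% to 10.1% of the reads of the 10 genes in Srgn-/- and 5.24% to 7.65% in Srgn+/+.

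Klrk1 encodes NKG2D, which binds stress-induced ligands, and Klrd1 encodes CD94, which pairs with NKG2 chains to read the class I molecule Qa-1. They are neighbours on chromosome 6. Klrk1 had 15, 10, 6, 5 and 5 reads in Srgn-/- libraries 1 to 5, against 11, 19, 14, 5 and 3 reads in Srgn+/+ libraries 1 to 5. Klrd1 had 16, 10, 6, 6 and 10 reads in Srgn-/- libraries 1 to 5, against 3, 11, 20, 6 and 3 reads in Srgn+/+ libraries 1 to 5. For each of them the Srgn+/+ range in CPM enclosed the Srgn-/- range, with the low end in Srgn+/+ 5 for Klrk1 and in Srgn+/+ 1 for Klrd1. Klrk1 ran from 0.547 to 1.47 CPM in Srgn-/- and from 0.398 to 1.82 CPM in Srgn+/+, and Klrd1 from 0.714 to 1.57 CPM in Srgn-/- and from 0.289 to 2.03 CPM in Srgn+/+. Klrk1 averaged 0.894 ± 0.385 CPM in Srgn-/- and 1.05 ± 0.587 CPM in Srgn+/+. Klrd1 averaged 1.05 ± 0.342 CPM in Srgn-/- and 0.891 ± 0.702 CPM in Srgn+/+. A fit with no filter gave Klrk1 a log2 difference of -0.25 (95% interval -1.38 to 0.88, adjusted p = 0.884) and Klrd1 0.22 (-0.97 to 1.42, adjusted p = 0.905). The interval of Klrk1 includes 0 and a fall of 1 log2 unit, and that of Klrd1 includes 0 and a rise of 1 log2 unit.

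Eomes encodes the T-box transcription factor that, with T-bet, drives NK cell maturation. Eomes had 3, 5, 3, 2 and 3 reads in Srgn-/- libraries 1 to 5, against 10, 13, 9, 4 and 4 reads in Srgn+/+ libraries 1 to 5. Srgn-/- 1, 3, 4 and 5 were at or under the floor of 3 reads, and the levels were 0.294, 0.550, 0.357, 0.255 and 0.328 CPM in Srgn-/-, against 0.962, 1.24, 0.914, 0.458 and 0.531 CPM in Srgn+/+. Srgn-/- 2 was the library that made the groups overlap, since the other 4 lay below every Srgn+/+ library. Eomes averaged 0.357 ± 0.115 CPM in Srgn-/- and 0.821 ± 0.325 CPM in Srgn+/+. With no filter its log2 difference was -1.19 (95% interval -2.51 to 0.06; edgeR adjusted p = 0.566).

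**Figure D3:**
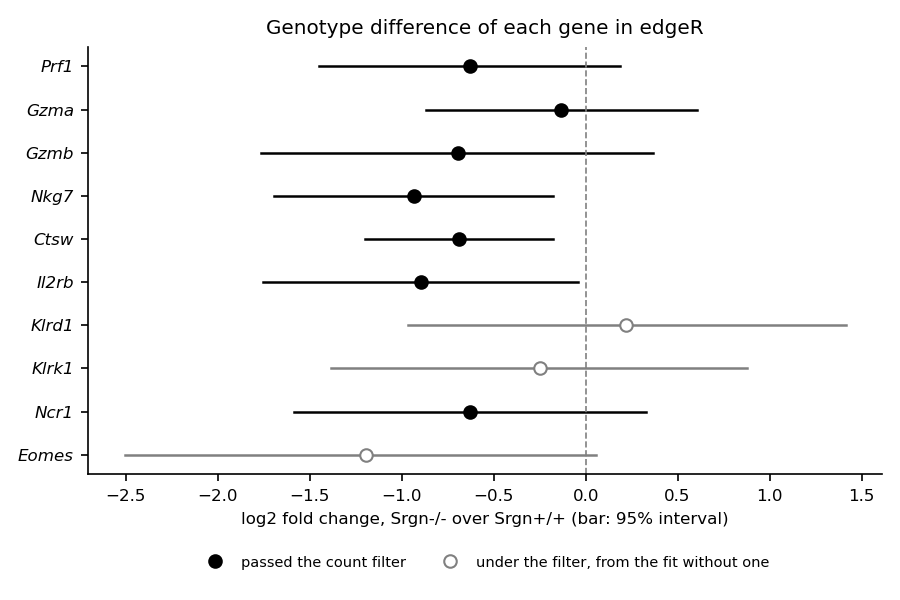
Log2 difference of Srgn-/- over Srgn+/+ for each gene in edgeR, with its 95% interval, where filled points passed the count filter and open points come from the fit without a filter. The intervals of Nkg7, Ctsw and Il2rb lie below 0 and the others cross it, before any adjustment for the 12719 tests.

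Among the 10 genes, 0 had groups that did not overlap, where 1.38% of all tested genes lay wholly lower in Srgn-/-. Without Srgn-/- 1 this count was 1 (Nkg7), against 2.61% of all tested genes. It was also 1 without Srgn-/- 2 (Eomes) and without Srgn+/+ 4 (Ctsw), against 1.75% of all tested genes in each case. The highest library was always a Srgn+/+ library: Srgn+/+ 3 for 5 genes, Srgn+/+ 2 for 3, and Srgn+/+ 1 and 5 for 1 each. Srgn+/+ 3 was among the top 3 libraries for all 10 genes and Srgn+/+ 2 for 8, whereas Srgn+/+ 4 was among the bottom 3 for 7. On the Srgn-/- side, library 1 was among the top 3 for 6 genes.

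**Figure D4:**
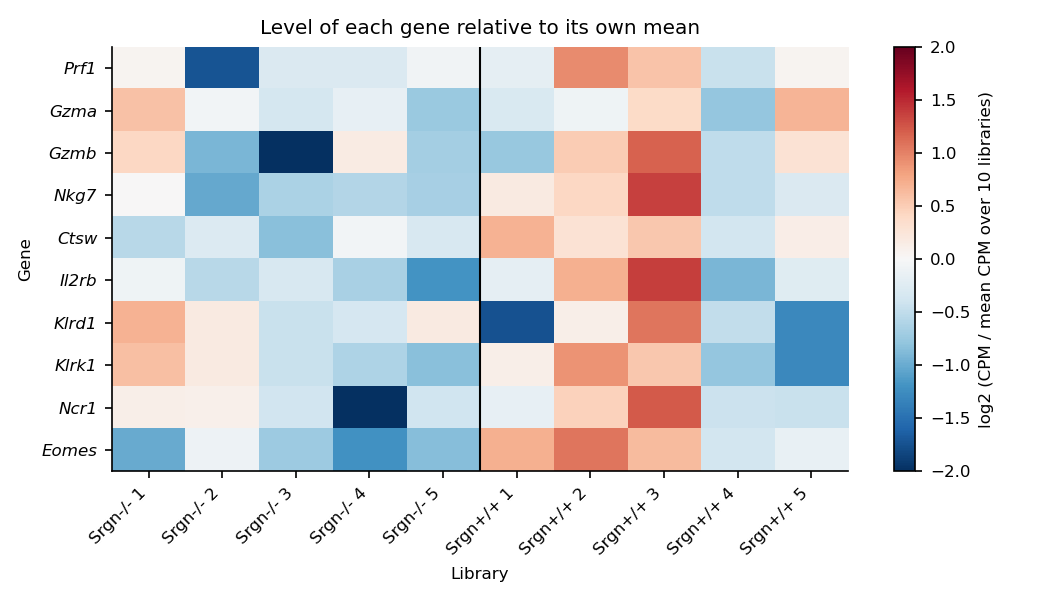
Level of each gene in each library as log2 of its CPM over its own mean over the 10 libraries, with Srgn-/- libraries left of the line and Srgn+/+ libraries right of it. Red cells gather in Srgn+/+ 2 and 3, and Srgn+/+ 4 is pale or blue for all 10 genes.

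The SD between animals holds their own differences as well as counting error. The SD of Il2rb in Srgn+/+ was 6.87 times its counting SD and that of Nkg7 4.68 times, and over the 10 genes the ratio ran from 1.11 (Eomes) upward. In Srgn-/- the ratio ran from 0.572 (Eomes) to 2.36 (Gzmb). Leaving out Srgn+/+ 3 left Ctsw as the only gene of the 7 at an unadjusted p under 0.05, and gave Gzmb -0.36 and Ncr1 -0.25. The count of 3 was thus 1 without that library. It was 2 (Nkg7 and Ctsw) when any 1 of Srgn+/+ 2 and Srgn-/- 2, 3, 4 and 5 was left out. With library totals alone in edgeR the count was also 2. Without the 3 libraries with epididymis RNA the log2 differences were -0.71 for Ctsw, -1.02 for Nkg7, -0.98 for Il2rb, -0.89 for Prf1, -0.73 for Ncr1, -0.46 for Gzmb and -0.04 for Gzma, again with 0 called and with Nkg7, Ctsw and Il2rb at an unadjusted p under 0.05.

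Srgn+/+ 2 and 3, the libraries with most cytotoxic RNA, also held most T-cell RNA. The 12 T-cell marker genes (Cd3e, Cd3d, Lat and others) summed to 12.5, 11.9, 21.0, 10.6 and 11.1 CPM in Srgn-/- libraries 1 to 5, against 19.2, 36.9, 55.6, 15.8 and 19.4 CPM in Srgn+/+ libraries 1 to 5. Of these 12 genes 9 were tested, all 9 had lower fitted values in Srgn-/- with a median of -1.002 on the log2 scale, and 0 were called. Srgn-/- 1, the highest Srgn-/- library for the cytotoxic genes, was not high in T-cell RNA. The summed cytotoxic genes stood at 264%, 193%, 103%, 222% and 183% of the T-cell sum in Srgn-/-, against 170%, 124%, 120%, 133% and 157% in Srgn+/+. The part of T-cell RNA in the differences of the 10 genes was not tested, and most of the 10 are also expressed by cytotoxic T cells. In whole tissue, fewer cells of a type and less RNA per cell cannot be told apart.

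Ptprc, which encodes CD45 and is carried by all leukocytes, was at 85.7, 37.0, 36.8, 61.0 and 54.9 CPM in Srgn-/- libraries 1 to 5, against 48.99, 81.7, 103, 69.9 and 111 CPM in Srgn+/+ libraries 1 to 5. Its log2 difference was -0.59 (edgeR adjusted p = 0.394). The summed cytotoxic genes were 38.3%, 61.9%, 58.9%, 38.5% and 37.3% of the Ptprc level in Srgn-/-, against 66.4%, 56.1%, 64.8%, 30.0% and 27.3% in Srgn+/+. Relative to this leukocyte marker the Srgn+/+ range enclosed the Srgn-/- range, and Srgn+/+ 5, with the most Ptprc, had the lowest ratio. Of the other leukocyte lists, B-cell genes summed to 14.9 to 24.4 CPM in Srgn-/- and 20.6 to 35.3 CPM in Srgn+/+, and macrophage genes to 1763 to 3371 CPM in Srgn-/- and 1683 to 5801 CPM in Srgn+/+. Dendritic-cell genes summed to 27.8 to 32.1 CPM in Srgn-/- and 32.3 to 39.5 CPM in Srgn+/+, and mast-cell genes to 52.1 to 90.0 CPM in Srgn-/- and 69.4 to 121 CPM in Srgn+/+. Neutrophil genes, of which Ngp was at 0 in every library, summed to 20.4 to 68.2 CPM in Srgn-/- and 9.05 to 70.6 CPM in Srgn+/+. Genes of type 2 innate lymphoid cells, another lymphoid cell of fat, summed to 61.6 to 84.6 CPM in Srgn-/- and 50.6 to 68.1 CPM in Srgn+/+. Rora made up most of that sum. It averaged 55.4 CPM of a mean sum of 68.1 CPM in Srgn-/-, and 52.7 CPM of 62.2 CPM in Srgn+/+. None of the genes on these lists was called, and their part in the results was not tested either.

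**Figure D5:**
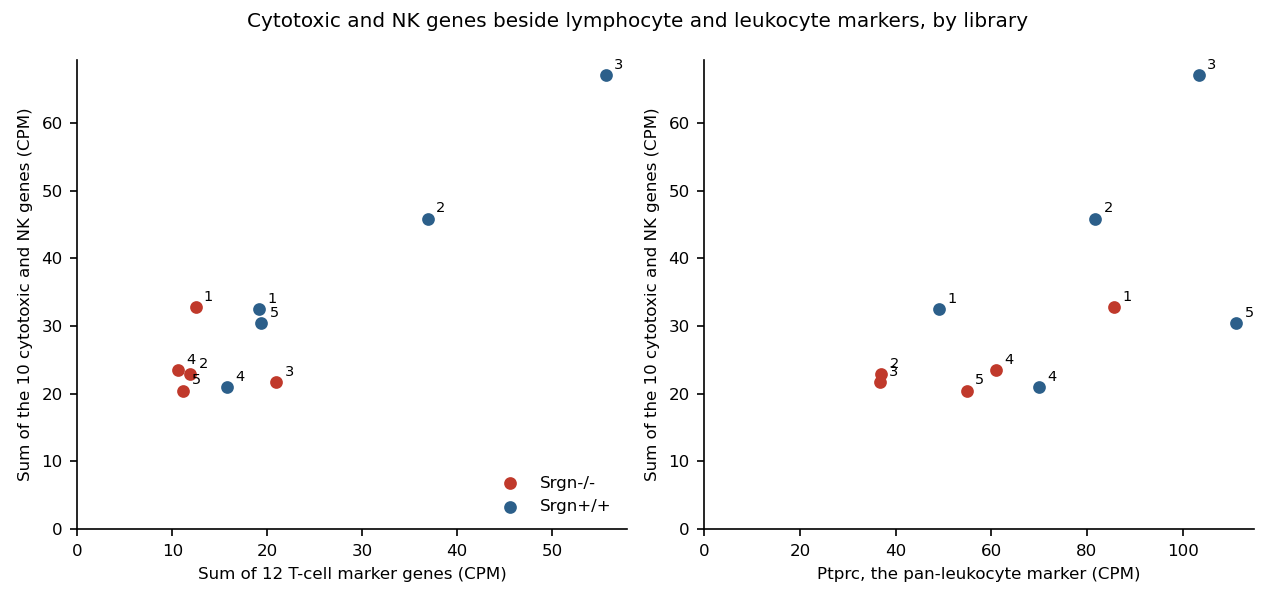
Summed level of the 10 cytotoxic and NK genes (y axis, CPM) against the summed level of 12 T-cell marker genes (left panel) and against Ptprc (right panel), 1 point a library, Srgn-/- in red and Srgn+/+ in blue with the library number. Srgn+/+ 2 and 3 are at the upper right of the left panel, and in the right panel Srgn+/+ 5 has the most Ptprc with a middling cytotoxic sum.

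The wider cytotoxic pathway was read from 6 further lists of 147 genes, of which 137 had a row in the table and 84 passed the filter. None of the 84 was called in edgeR, DESeq2 or limma-voom. Fitted values were lower in Srgn-/- for 62 and higher for 22, with a median of -0.18 on the log2 scale against 0.00 over all tested genes, and 12 were lower and 5 higher at an unadjusted p under 0.05, against 6.06% lower and 6.77% higher of all tested genes. The lists differed in where their values lay, but no list was tested as a whole.

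NK receptors and adaptors other than the 10 had the lowest median. Of 49 listed, 47 had a row and 23 were tested: 18 had lower and 5 higher values in Srgn-/-, with a median of -0.54, 0 called and 5 lower at an unadjusted p under 0.05. Part of this list is not particular to NK cells. Tyrobp, Fcer1g, Itgb2 and Fcgr3, named after their values were seen, are also carried by myeloid cells. Each was highest in Srgn+/+ 5 and lowest in Srgn+/+ 1, as was the summed level of macrophage genes. The part of myeloid RNA in the median was not tested. Hcst encodes DAP10, the adaptor through which NKG2D signals. It averaged 3.12 ± 1.32 CPM in Srgn-/- and 5.77 ± 0.644 CPM in Srgn+/+, a log2 difference of -0.88 (edgeR adjusted p = 0.255). Cd247, the signalling zeta chain of NK activating receptors and of the T-cell receptor, averaged 4.07 ± 0.409 CPM in Srgn-/- and 6.89 ± 3.49 CPM in Srgn+/+, a log2 difference of -0.77 (edgeR adjusted p = 0.338). Cxcr3, a chemokine receptor of cytotoxic lymphocytes, averaged 2.66 ± 0.561 CPM in Srgn-/- and 4.80 ± 2.05 CPM in Srgn+/+ (log2 difference -0.85, adjusted p = 0.313). Syk, a kinase that B cells and myeloid cells also carry, averaged 28.7 ± 9.86 CPM in Srgn-/- and 48.6 ± 12.7 CPM in Srgn+/+ (log2 difference -0.76, adjusted p = 0.267).

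Klrb1c, which encodes the C57BL/6 NK marker NK1.1, had a higher mean in Srgn-/- because of 1 library. It is outside the rule for named genes and was chosen after its values were seen. Klrb1c had 32, 17, 1590, 33 and 23 reads in Srgn-/- libraries 1 to 5, against 47, 72, 95, 249 and 60 reads in Srgn+/+ libraries 1 to 5. In CPM this was 3.14, 1.87, 189, 4.21 and 2.51 in Srgn-/-, against 4.52, 6.88, 9.64, 28.5 and 7.96 in Srgn+/+. Srgn-/- 3 alone put the Srgn-/- mean above that of Srgn+/+, and the other 4 Srgn-/- libraries lay below every Srgn+/+ library. The highest library of each group was also its highest for epididymis RNA. Srgn-/- 5, with an epididymis sum of 1089 CPM, was at 2.51 CPM of Klrb1c. Klrb1c averaged 40.2 ± 83.4 CPM in Srgn-/- and 11.5 ± 9.67 CPM in Srgn+/+, a log2 difference of 1.81 (edgeR adjusted p = 0.600). The part of epididymis RNA in this difference was not tested.

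Signalling through interleukin-2 and interleukin-15 was mixed. Of 23 listed genes 22 had a row and 15 were tested, with 12 lower and 3 higher values in Srgn-/-, a median of -0.18, 0 called, and 3 lower and 1 higher at an unadjusted p under 0.05. Il21r, a receptor that shares the common gamma chain, averaged 2.07 ± 0.760 CPM in Srgn-/- and 4.38 ± 1.46 CPM in Srgn+/+, a log2 difference of -1.06 (edgeR adjusted p = 0.247). Il15ra, the chain that presents interleukin-15 to Il2rb, had higher values: 42.4 ± 5.93 CPM in Srgn-/- and 34.5 ± 3.63 CPM in Srgn+/+, a log2 difference of 0.29 (adjusted p = 0.329). Jak3, the kinase of the common gamma chain, averaged 51.6 ± 8.69 CPM in Srgn-/- and 66.4 ± 10.6 CPM in Srgn+/+ (log2 difference -0.36, adjusted p = 0.329). Socs3, a feedback inhibitor of cytokine signalling, averaged 1.43 ± 0.332 CPM in Srgn-/- and 2.39 ± 0.731 CPM in Srgn+/+ (log2 difference -0.73, adjusted p = 0.357).

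Of 18 lineage transcription factors, 17 had a row and 13 were tested, with 10 lower and 3 higher values, a median of -0.28, 0 called and 2 lower at an unadjusted p under 0.05. Those 2 were Ikzf1, which encodes the lymphoid factor Ikaros, and Tcf7, which encodes the T and NK lineage factor TCF-1. Ikzf1 averaged 24.5 ± 8.33 CPM in Srgn-/- and 36.5 ± 5.05 CPM in Srgn+/+ (log2 difference -0.57, adjusted p = 0.309). Tcf7 averaged 2.16 ± 0.523 CPM in Srgn-/- and 4.19 ± 1.92 CPM in Srgn+/+ (log2 difference -0.95, adjusted p = 0.313). Nfil3, needed for NK development, averaged 15.6 ± 5.44 CPM in Srgn-/- and 22.3 ± 6.71 CPM in Srgn+/+ (log2 difference -0.51, adjusted p = 0.418). Runx3, whose family's letters were found in 6 promoters above, averaged 3.87 ± 1.06 CPM in Srgn-/- and 5.63 ± 1.87 CPM in Srgn+/+ (log2 difference -0.54, adjusted p = 0.418).

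Other granule proteins and death ligands numbered 23 with a row, of which 11 were tested: 8 had lower and 3 higher values, the median was -0.10, 0 were called and 1 was lower at an unadjusted p under 0.05. That gene was Serpinb6b, a serpin related to the granzyme inhibitors, at 31.2 ± 4.01 CPM in Srgn-/- and 41.1 ± 9.004 CPM in Srgn+/+ (log2 difference -0.40, adjusted p = 0.302). Ctsc, whose product activates pro-granzymes, averaged 142 ± 37.4 CPM in Srgn-/- and 166 ± 22.5 CPM in Srgn+/+ (log2 difference -0.23, adjusted p = 0.571). The lysosomal genes Ctsb (log2 difference -0.34, adjusted p = 0.577) and Lamp2 (log2 difference 0.22, adjusted p = 0.456), which most cells express, did not pass either.

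Granule trafficking and exocytosis genes lay on both sides of 0. Of 17 listed, 16 had a row and 14 were tested, with 8 lower and 6 higher values, a median of -0.02, 0 called, and 3 higher and 0 lower at an unadjusted p under 0.05, against 6.77% and 6.06% of all tested genes. Sytl2, which tethers granules at the membrane, averaged 8.33 ± 0.902 CPM in Srgn-/- and 6.26 ± 0.832 CPM in Srgn+/+ (log2 difference 0.41, adjusted p = 0.333). Lyst, the gene of lysosome size mutated in beige mice, averaged 67.9 ± 4.13 CPM in Srgn-/- and 60.3 ± 2.55 CPM in Srgn+/+ (log2 difference 0.17, adjusted p = 0.377), and its groups did not overlap, as for 1.39% of all tested genes that lay wholly higher. Kif5b, a kinesin, averaged 95.5 ± 6.84 CPM in Srgn-/- and 85.0 ± 2.04 CPM in Srgn+/+ (log2 difference 0.17, adjusted p = 0.378). Snap23, a fusion protein, averaged 98.8 ± 17.4 CPM in Srgn-/- and 113 ± 9.53 CPM in Srgn+/+ (log2 difference -0.19, adjusted p = 0.537). These genes act in many cell types, so their levels in fat are not levels in lymphocytes.

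Ligands that the receptors bind numbered 17, of which 12 had a row and 8 were tested, with 6 lower and 2 higher values, a median of -0.22, 0 called, and 1 lower and 1 higher at an unadjusted p under 0.05. Cdh1, E-cadherin, a ligand of the inhibitory receptor KLRG1, averaged 15.01 ± 10.6 CPM in Srgn-/- and 5.20 ± 3.42 CPM in Srgn+/+, a log2 difference of 1.52 (edgeR adjusted p = 0.329). Cdh1 was at 4.80, 15.6, 30.4, 5.23 and 19.0 CPM in Srgn-/- libraries 1 to 5, against 3.08, 2.68, 10.4, 7.09 and 2.79 CPM in Srgn+/+ libraries 1 to 5. Its highest levels were in Srgn-/- 3 and 5, which also held the most epididymis RNA. Srgn-/- 2 was at 15.6 CPM with an epididymis sum of 8.80 CPM. Srgn+/+ 3 was at 10.4 CPM with an epididymis sum of 4.26 CPM, and Srgn+/+ 4 at 7.09 CPM with 910 CPM. The part of epididymis RNA in the difference of Cdh1 was not tested. Icam1, bound by the integrin LFA-1, averaged 27.0 ± 4.01 CPM in Srgn-/- and 34.8 ± 6.68 CPM in Srgn+/+ (log2 difference -0.37, adjusted p = 0.350). Clec2d, ligand of inhibitory NKR-P1 receptors in mice, averaged 339 ± 37.6 CPM in Srgn-/- and 447 ± 145 CPM in Srgn+/+ (log2 difference -0.40, adjusted p = 0.392). Cd48, ligand of the receptor 2B4, averaged 22.4 ± 8.20 CPM in Srgn-/- and 33.8 ± 13.9 CPM in Srgn+/+ (log2 difference -0.59, adjusted p = 0.433).

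Prf1 shares chromosome 10 with the deleted gene. The RefSeq annotation places 36 genes between Srgn and Prf1, 20 of them protein-coding, and 11 were tested: 4 had lower and 7 higher values in Srgn-/-, 0 were called, and no adjusted p was below 0.270. An unadjusted p under 0.05 was found for 2 of the 11, against 12.8% of all tested genes. They were Eif4ebp2 and Hk1, named after their values were seen, and both had lower values in Srgn-/-. The groups of Hk1 did not overlap, where 1.38% of all tested genes lay wholly lower in Srgn-/-.

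Within the 7 tested genes, Nkg7 followed the mean of the 7 most closely over the 10 libraries (r = 0.95 with the mean of their standardized log2 CPM), then Il2rb (0.935), Gzmb (0.846), Prf1 (0.763), Ncr1 (0.747), Ctsw (0.688) and Gzma (0.620). Each gene is part of that mean, so these values describe and test nothing. Among 11942 other genes with a mean of at least 1 CPM, the closest to the mean was Cct5, a subunit of the cytosolic chaperonin, with Pearson's r of 0.959 and Spearman's rho of 0.891 over 10 libraries. Cxcr3 (r 0.930, rho 0.842) and Ms4a4b, which encodes a T-cell membrane protein (r 0.922, rho 0.818), were also among the 10 closest. So were Fmnl1, Secisbp2, H2-Q5, H2-Q7, Glg1 and Serpina3g. Without Srgn+/+ 3 and 2, the libraries farthest from the median, r was 0.923 for Cct5, 0.836 for Cxcr3, 0.669 for Ms4a4b and 0.534 for Serpina3g. These genes were ranked out of 11942 over 10 points that share library and depth, and they are named as a description. H2-Q5 and H2-Q7 are near-identical class I genes, so their separate values are uncertain.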

How the data were processed

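Per the labels' protocols, total RNA of each animal's fat was made into Ion AmpliSeq transcriptome libraries and read on an Ion S5 XL. The authors deposited raw read counts per amplicon and a scaled table (RPM, reads per 1000000). The deposited RPM equal count over library total within 0.00059109, so they correct for total reads alone. The build is mm9 per the submitters' processing notes; no source used here names the aligner or counter.

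Counts were fitted with edgeR 4.0.16 in R 4.3.3: filterByExpr (minimum count 10, minimum total 15) kept 12719 amplicons and left 11211 untested, and TMM factors and the robust quasi-likelihood test followed with no covariate. The steps were run on simulated counts whose changed genes differed by more than any of the 10 genes here. That run does not tell whether differences as small as theirs would be called. DESeq2 1.42.0, limma-voom (limma 3.58.1), other scalings, other filters, each library left out in turn, and the 3 libraries with epididymis RNA left out together served as alternatives. P-values measure the spread between 5 animals a group, and library numbers name animals in accession order and pair none. AmpliSeq reads are PCR products with no molecular identifier, so the floor of 3 reads covers counting error only. Sequences are RefSeq's (GRCm38.p6), and the genes between Srgn and Prf1 come from the RefSeq gene table.

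The members, lists and tests were chosen with earlier results of these data known. The text names all 10 members and Srgn, up to 4 tested genes with the smallest p in each pathway list, the summed level of each marker list with its best-covered genes, and the 10 genes closest to the members' mean, of which 1 is not reported here. Other genes are marked, where they appear, as picked with their values in view.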

Additional observations from a re-analysis of the deposited data

Results flagged for a closer look

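In 108 groups of 5 libraries (the genes and sums described above, each genotype apart), 13 had a library whose gap to its nearest neighbour took up over 71% of the group's range. For independent, normally distributed values this cutoff flags about 1 group in 20 by chance. The groups here share libraries and genes and many have low counts, so the 13 cannot be set against that rate. For the 10 cytotoxic and NK genes, no single gene was among the 13, but their sum was, with Srgn-/- 1 at 32.8 CPM and the next Srgn-/- library at 23.5 CPM. Srgn itself was at 1.31 CPM in Srgn-/- 5, with the next Srgn-/- library at 0.294 CPM. T-cell and B-cell sums were far above the other Srgn-/- libraries in Srgn-/- 3, at 21.0 and 24.4 CPM. The neutrophil sum was high in Srgn-/- 1 at 68.2 CPM, the sum for type 2 innate lymphoid cells in Srgn-/- 4 at 84.6 CPM, and the mast-cell sum in Srgn+/+ 5 at 121 CPM. In Srgn-/- 4, Rora alone was at 71.4 CPM. Epididymis and testis genes reached 4535 CPM in Srgn-/- 3 and 910 CPM in Srgn+/+ 4.

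Among single genes, Serpinb6b was highest in Srgn+/+ 5 at 56.7 CPM, and Snap23 was lowest in Srgn+/+ 1 at 96.0 CPM. Glg1 stood out in Srgn-/- 1 at 67.2 CPM. Serpina3g was at 18.6 CPM in Srgn+/+ 3, with the next Srgn+/+ library at 6.88 CPM.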

How the results depend on the processing

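None of the 10 genes passed the threshold under any alternative that was run, and none of the pathway genes did. Over all genes, DESeq2's Wald test called 226, against 1 in edgeR, and a fit with no low-count filter called 3; the cause was not tested. Leaving out each library in turn gave 1 to 2 genes called over all genes (2 without Srgn-/- 1 or Srgn+/+ 5). Members called were 0 to 0, and pathway genes called were 0 to 0. Of the 7 to 9 members that passed the filter, 7 to 9 had lower values. This count was 7 of 9 without Srgn+/+ 5 and 7 of 8 without Srgn+/+ 2. Groups did not overlap for 0 to 1 of the members that passed the filter. Without the 3 libraries with epididymis RNA, 1 member (Ctsw) had groups that did not overlap, against 2.80% of all tested genes that then lay wholly lower in Srgn-/-. The difference of Klrd1 was -0.0052 without Srgn+/+ 1, and that of Gzma was 0.059 without Srgn+/+ 5, both on the other side of 0; the cause was not tested. Ranges over the libraries left out in turn were -1.11 to -0.54 for Nkg7, -0.81 to -0.57 for Ctsw, -1.09 to -0.48 for Il2rb, -1.005 to -0.36 for Gzmb, -0.76 to -0.40 for Prf1, -0.77 to -0.25 for Ncr1, -0.37 to 0.06 for Gzma, -0.44 to -0.11 for Klrk1 and -0.01 to 0.34 for Klrd1. The last 2 passed the filter in 6 of these 10 fits, and Eomes in none. The smallest adjusted p of a member over the fits with a library left out in turn was 0.206 (edgeR, Nkg7 without Srgn-/- 1). With all 10 libraries, DESeq2's Wald test gave an adjusted p of 0.137 for Ctsw and 0.180 for Nkg7. No paired analysis was possible because the library numbers pair no animals.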

Other observations

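The genes named in this section were chosen after their values were seen. Gzmk, the granzyme of memory-like CD8 T cells, had 0, 0, 1, 1 and 1 reads in Srgn-/- libraries 1 to 5, against 6, 8, 20, 1 and 1 reads in Srgn+/+ libraries 1 to 5. Srgn+/+ 1, 2 and 3 stood above all other libraries, while Srgn+/+ 4 and 5 read like Srgn-/-. A fit with no filter gave Gzmk an unadjusted p of 0.00547 and an adjusted p of 0.358. Of the 10 granzyme genes in the table, Gzmf and Gzmg had 0 reads in every library. Tbx21, which encodes T-bet, the T-box partner of Eomes, had 33 reads in all in Srgn-/- and 86 in Srgn+/+ (edgeR adjusted p = 0.506 with no filter). Of the 86 reads, 39 were in Srgn+/+ 3. Klri2, an NK receptor gene, had 18 reads in Srgn-/- and 43 in Srgn+/+ (edgeR adjusted p = 0.575 with no filter). It had 1 to 6 reads a library in Srgn-/- and 5 to 13 in Srgn+/+. In CPM its groups did not overlap, where 1.38% of all tested genes lay wholly lower in Srgn-/-.

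Xcl1, a chemokine of NK cells, had 32 reads in Srgn-/- and 81 in Srgn+/+, 51 of them in Srgn+/+ 3. Klrc1 had 33 reads in Srgn-/- and 77 in Srgn+/+, and Klre1 had 23 reads in Srgn-/- and 59 in Srgn+/+. Other genes under the filter had more reads in Srgn-/-. Klrb1a had 65 reads in Srgn-/- and 28 in Srgn+/+, Gata3 had 83 reads in Srgn-/- and 46 in Srgn+/+, and Exph5 had 17 reads in Srgn-/- and 5 in Srgn+/+. Srgn-/- 3, a library with epididymis RNA, was the highest library for all 3, with 37 reads of Klrb1a and 36 of Gata3. Over the 53 pathway genes under the filter, 35 had a lower and 14 a higher mean in Srgn-/-, and 4 were at 0 in every library. None of them was called in the edgeR fit with no filter, and Gzmk, Tbx21 and Klra6 had an unadjusted p under 0.05. Klra6, a Ly49 receptor gene, had 0 reads in Srgn-/- and 9 in Srgn+/+. The granzyme and Klr families hold close copies, so the values of these genes are uncertain.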
